A study of Mus musculus with 2 samples.

Results

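The genes described here encode enzymes that write and erase methyl and acetyl groups on histones, together with the core of the Polycomb complexes, in mature mouse oocytes. They were chosen by symbol from a list of 54 genes, and 53 of them could be matched to a row among the 36227 genes of the deposited count table. The exception is Prmt1, whose symbol could not be tied to a row and which is not analysed here. Both libraries came from ICR mice, an outbred strain, whose females had become obese by 12 weeks of age in standard housing. The slimming group then spent 4 weeks in enriched-environment cages, and the control group, labelled as fed a standard diet, stayed in normal cages. At 16 weeks of maternal age, naturally ovulated oocytes arrested at metaphase II were collected from 3 mice per group, 3 oocytes from each, and the 9 oocytes of a group were lysed in 1 tube and sequenced as 1 library. The comparison addresses whether slimming of obese mothers goes with differences in oocyte mRNA. With 1 library per group there was no replicate, so no difference below has a replicate check or a test. Every ratio given is one between this pair of libraries and need not hold for the conditions. Where values stand side by side, that of the slimming library comes first.

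Histone tails carry chemical marks that are set and removed by opposing enzymes. Methylation of lysine 4 on histone H3 (H3K4) marks active promoters, H3K9 and H3K27 methylation mark silent chromatin, H3K36 methylation follows transcribed genes, and acetylation opens chromatin. A growing oocyte builds much of its chromatin with these enzymes and then stops transcription, so the mRNA of the mature oocyte is a store that serves the egg and the early embryo until the embryonic genome is switched on. In mice, maternal Kmt2b, Kdm1b, Ezh2, Eed, Setdb1 and Hdac2 are known from knockouts to matter for oocyte or early embryo development.

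The oocyte markers matched the label. The table gave 20947962 counts for the slimming and 20242289 for the control library, and all 12 oocyte markers, among them Gdf9, the zona pellucida genes and Mos, were detected in both, with a sum of 105689 CPM (counts per 1000000 counts of the table) after slimming and 105951 CPM in control oocytes. These near-equal sums were carried by Gdf9 and H1foo, while Zp1, Zp2 and Zp3 were 1.92-fold, 1.75-fold and 2.05-fold higher in the slimming library. Markers of other cells were low or carried by 1 gene. Of 12 immune markers 10 were detected in at least 1 library, with sums of 25.8 CPM after slimming and 42.9 CPM in control oocytes. H2-Aa held 17.9 and 27.2 CPM of these sums. Tyrobp and Fcer1g were at 0 counts in the slimming library against 57 and 62 in the control library. Cd68 had 79 against 103 counts, while Laptm5 went the other way with 86 against 75. The summed level of the cumulus and granulosa markers was 532 and 528 CPM, of which Serpine2 held 491 and 475 CPM. Cyp19a1 (34.5 and 39.2 CPM) and Nr5a2 (136 and 204 counts) were also detected in both libraries. Inha stood at 0 against 63 counts and Foxl2, Amh and Fshr at 0 in both. Oviduct markers (246 and 246 CPM) were nearly all Cdh1, sperm markers (22.2 and 23.7 CPM) mostly Prm2, and red blood cell markers (1.24 and 0.840 CPM, of 5 matched genes) nearly all Epb42. In pooled bulk samples, fewer cells of a type and less RNA per cell cannot be told apart.

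Of the 53 matched genes, 36 reached at least 10 CPM in at least 1 library and are called expressed here. Another 9 reached at least 1 CPM and 8 stayed under 1 CPM in both libraries. All 53 together held 102256 counts after slimming and 97832 in control oocytes, 0.488% and 0.483% of the totals, and Ezh2, Kmt2b, Dot1l, Kat7 and Ezh1 alone held 60.1% and 59.7% of these counts. Levels are compared between genes below as CPM per kilobase of merged exons, because a long mRNA can give more reads than a short one. The cDNA was primed from the poly(A) tail, so division by length may understate long genes, and it is stated where another length changes an order.

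On that scale the genes spanned from no count to 129 CPM per kilobase, and their order was nearly the same in both libraries (Spearman's rho 0.982 across 53 genes, which are not independent replicates). Ezh2, the catalytic subunit of Polycomb repressive complex PRC2, led both libraries at 125 CPM per kilobase after slimming and 129 in control oocytes. Kat7, the acetyltransferase HBO1 that acts near replication origins, followed at 108 and 107. Dot1l, the only known H3K79 methyltransferase, came next at 71.9 and 75.4, before Kmt2b, an H3K4 methyltransferase, at 66.6 and 57.7. These 4 stood at or above percentile 85.5 of the expressed genes in both libraries, whose median was 9.14 CPM per kilobase after slimming and 8.62 in control oocytes. With no length division Ezh2 still led both libraries, at 833 and 864 CPM, but the order below it changed. After slimming, Kmt2b (639 CPM) and Dot1l (626) then stood above Kat7 (600.5). In control oocytes Dot1l (656 CPM) stood above Kat7 (591) and Kmt2b (554).

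**Figure D1:**
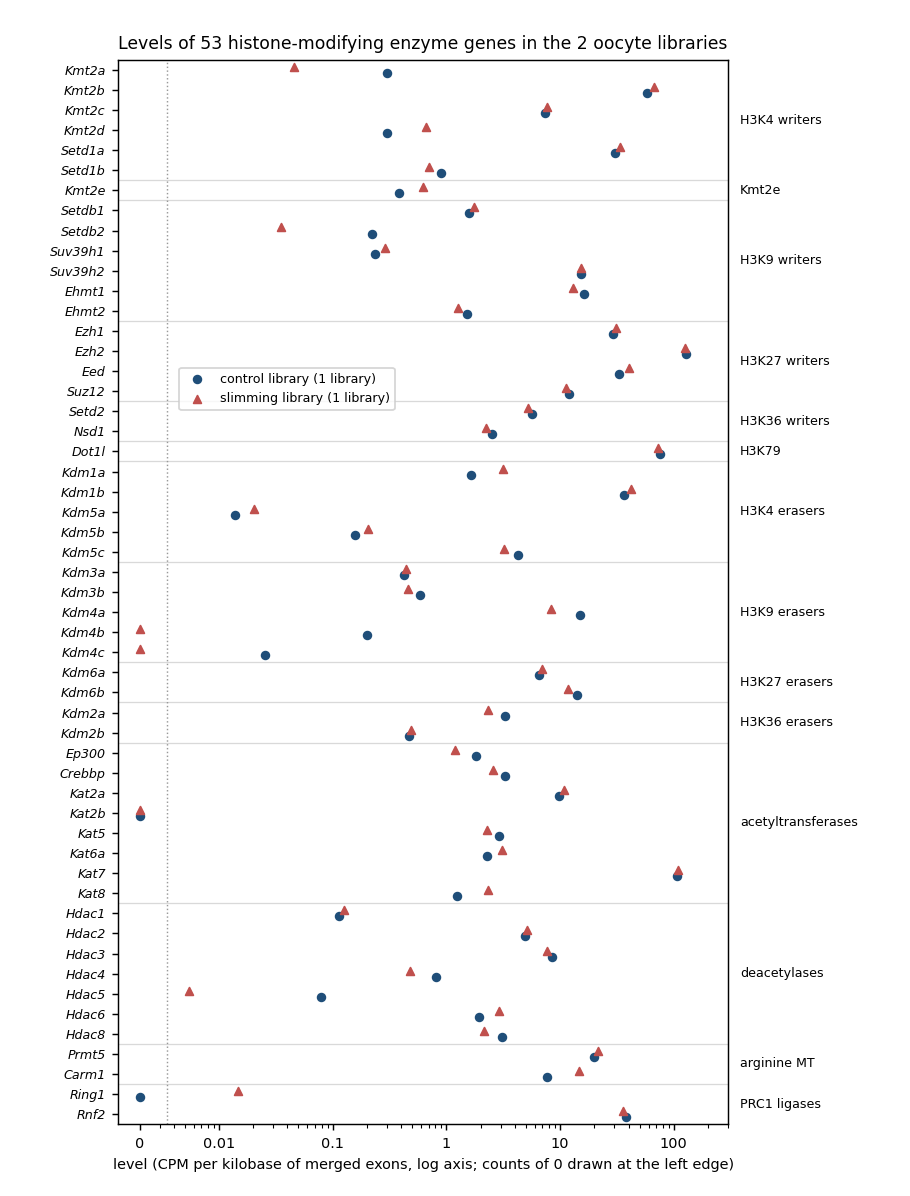
Levels of the 53 matched genes by role, in CPM per kilobase of merged exons on a log axis, with 1 symbol per library (triangle slimming, circle control) and counts of 0 at the left edge. Ezh2, Kat7, Dot1l and Kmt2b lie furthest to the right in both libraries, and Kat2b has no count in either.

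Against that shared order, the differences between the libraries were small for most of the genes. Among the 36 expressed members, 1 was higher in the slimming library by 2-fold or more (2.78%) and 0 were lower by as much, where 2.73% and 1.94% of all 5714 expressed genes were. Their median log2 ratio of slimming over control was -0.06, against 0.02 for all expressed genes, a shift of -0.08, with 16 above and 20 below that overall median (50% by construction for all expressed genes). The counting interval lay wholly above 0 for 10 members (27.8%) and wholly below 0 for 18 (50%), against 37.7% and 35.1% of the expressed genes, and held 0 for the other 8. At a fold of 1.5, a threshold chosen after the values were seen, 3 were higher and 3 lower (8.33% each), against 10.3% and 7.16% of the expressed genes. The fold counts lie near the background, so by size of difference the list did not stand apart from other expressed genes. The share with a counting interval below 0 was larger than among all expressed genes (50% against 35.1%). The members were also longer (median 6824 against 4646 exon bases) and higher in level (median 51.8 against 38.3 CPM after slimming). Whether the larger share holds among genes of like length and level was not tested.

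**Figure D2:**
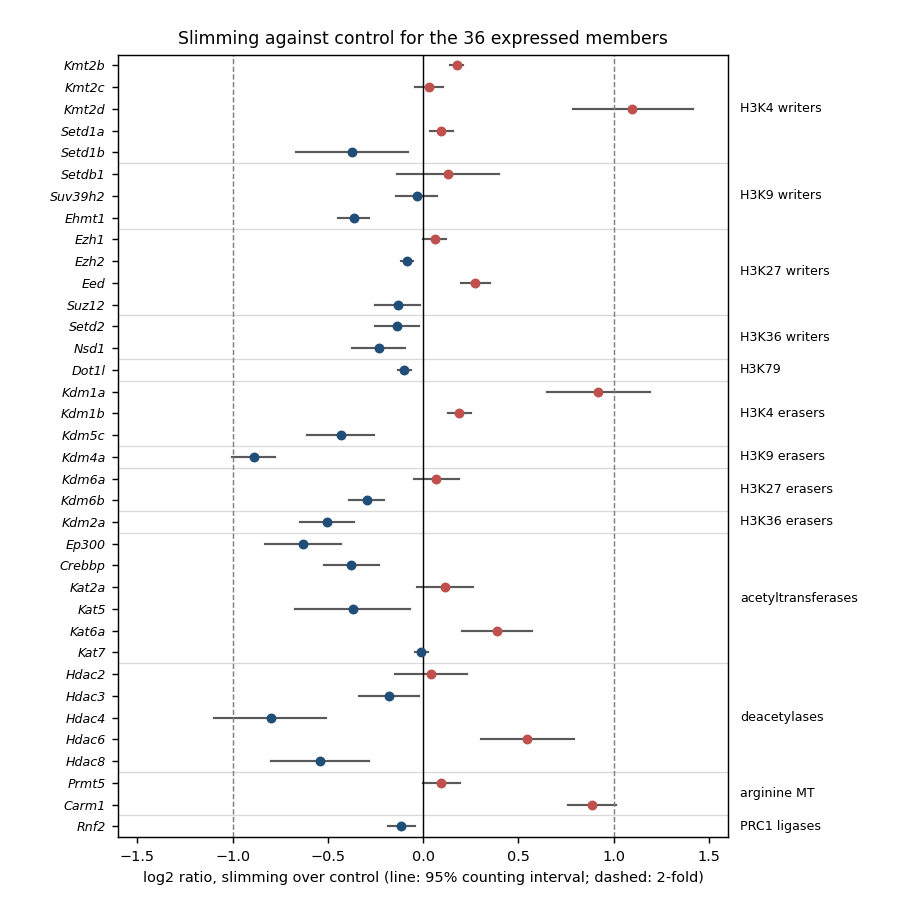
Log2 ratio of slimming over control for the 36 expressed genes by role, with the 95% interval of counting error alone as a line and 2-fold as dashed lines. Kmt2d is the only point beyond a dashed line, and Kdm1a, Carm1, Kdm4a and Hdac4 come closest to one.

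The enzymes that methylate H3K4 were led by Kmt2b, and the largest differences lay in Kmt2d and Kmt2a, both rare. Kmt2d (ENSMUSG00000048154, chromosome 15), which sets H3K4 methylation at enhancers, had 276 counts after slimming and 122 in control oocytes, or 13.2 and 6.03 CPM. It was thus 2.13-fold higher in the slimming library (log2 1.09, 95% counting interval 0.78 to 1.42). Kmt2a (ENSMUSG00000002028, chromosome 9), the founding MLL gene and the closest relative of Kmt2b, went the other way, with 16 counts against 102 (6.57-fold lower, log2 -2.72, interval -3.61 to -1.98). Kmt2a reached only 5.04 CPM, under the limit for expressed genes, and among genes with 1 to under 10 CPM in the higher library 16.5% were lower by 2-fold or more and 16.7% higher by as much. Both genes were rare per length in either library, at 0.661 against 0.302 CPM per kilobase for Kmt2d and 0.0458 against 0.302 for Kmt2a.

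The abundant members of this group hardly differed. Kmt2b (ENSMUSG00000006307, chromosome 7), the main H3K4 methyltransferase of the oocyte, had 639 CPM after slimming and 554 CPM in control oocytes, a log2 ratio of 0.18 (interval 0.14 to 0.21). Kmt2c, the partner gene of Kmt2d at enhancers, had 156 and 150 CPM (log2 0.03), and the SET1 enzyme Setd1a had 227 and 208 CPM (log2 0.09). More than 50% of the exon bases of Setd1a (52.3%) are shared with other annotated genes, so its reads may include theirs. Setd1b, the other SET1 enzyme, was near the limit with 8.54 and 10.8 CPM (log2 -0.37, interval -0.66 to -0.08). Kmt2e, an MLL relative without clear methyltransferase activity, had 136 against 81 counts, or 6.49 and 4.00 CPM (log2 0.66, interval 0.26 to 1.08), and shares 9.31% of its exon bases with Srpk2.

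The H3K9 methyltransferases were represented mainly by Suv39h2 and Ehmt1, and none was 2-fold apart among the 3 expressed. Suv39h2, which acts at heterochromatin, had 66.9 and 67.0 CPM, a log2 ratio of -0.03. Ehmt1 (GLP, the partner of G9a) was lower in the slimming library at 106 against 133 CPM (log2 -0.36, interval -0.45 to -0.28). Setdb1, which silences retroelements, had 252 and 218 counts, or 12.0 and 10.8 CPM (log2 0.13). The other 3 were scarce. Ehmt2, which encodes G9a, had 146 and 168 counts, and Suv39h1 had 32 and 25 counts. Exon bases shared with other genes amounted to 9.98% for Suv39h2 and 14.6% for Suv39h1. Setdb2 had 3 counts after slimming and 18 in control oocytes, a log2 ratio of -2.48 whose interval ran from -5.07 to -0.89.

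All 4 PRC2 core genes, which together set H3K27 methylation, were expressed and stayed within 1.21-fold between the libraries. Eed, the subunit that binds the mark, was the highest in the slimming library relative to control, with 3269 against 2556 counts (log2 0.27, interval 0.20 to 0.35). Ezh2 had 833 and 864 CPM (log2 -0.08), its relative Ezh1 had 233 and 219 CPM (log2 0.06), and the scaffold Suz12 had 55.5 and 59.6 CPM (log2 -0.13). Eed shares 6.82% of its exon bases with another annotated gene. The PRC1 ligase Rnf2, which ubiquitinates histone H2A, had 148 and 156 CPM, a log2 ratio of -0.11. Its relative Ring1 was nearly absent, with 1 count after slimming and 0 in control oocytes, where a count of 0 could still hide 3 counts, or 0.148 CPM.

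The remaining methyltransferases of lysine lay close to equal. Setd2, which trimethylates H3K36, had 56.4 and 60.7 CPM (log2 -0.14), and Nsd1, which sets H3K36 dimethylation, had 38.7 and 44.5 CPM (log2 -0.23). Dot1l had 626 and 656 CPM (log2 -0.10, interval -0.13 to -0.06). Over all 20 genes of lysine methylation, with the PRC2 subunits and Kmt2e counted in, 15 were expressed, and 7 of these lay above and 8 below the overall median, with a median log2 ratio of -0.03.

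Among the demethylases the differences went both ways, and the 2 expressed genes farthest apart were Kdm1a and Kdm4a. Kdm1a (ENSMUSG00000036940, chromosome 4), the flavin-dependent H3K4 demethylase LSD1, had 342 counts after slimming and 171 in control oocytes, 1.89-fold higher (log2 0.92, interval 0.65 to 1.19). Kdm4a (ENSMUSG00000033326, chromosome 4), which removes H3K9 and H3K36 trimethylation, had 1008 against 1767 counts, 1.85-fold lower (log2 -0.89, with an upper counting bound of -0.78). Of the 14 demethylases 7 were expressed, 3 above and 4 below the overall median, with a median log2 ratio of -0.30. In CPM, Kdm4a stood at 48.1 and 87.3, where the median of the expressed members was 51.8 and 50.7.

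The other H3K4 demethylases were Kdm1b and the KDM5 family. Kdm1b (LSD2), which the oocyte needs for DNA methylation of maternally imprinted genes, had 232 and 199 CPM, a log2 ratio of 0.19 (interval 0.13 to 0.25). It shares 9.19% of its exon bases with Dek, which itself had only 445 and 384 counts against 4855 and 4023 for Kdm1b. Kdm5c was lower in the slimming library at 478 against 610 counts (log2 -0.43, interval -0.61 to -0.26). Kdm5b, known for removing H3K4 trimethylation after fertilization, had only 71 and 53 counts, and Kdm5a had 6 and 4.

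The remaining demethylases act on H3K9, H3K27 and H3K36. For H3K27, Kdm6b (JMJD3) had 82.0 and 98.6 CPM (log2 -0.30, interval -0.39 to -0.20), and its X-linked relative Kdm6a (UTX) had 58.3 and 54.4 CPM (log2 0.07, interval -0.05 to 0.19). For H3K36, Kdm2a was lower in the slimming library with 710 against 952 counts (log2 -0.50, interval -0.65 to -0.36), and Kdm2b had 111 and 104 (8.74% of exon bases shared with another gene). For H3K9, apart from Kdm4a, levels were low in both libraries. Kdm3a had 76 and 71 counts and Kdm3b 135 and 166, of which Kdm3b shares 24.6% of its exon bases with Gm26538. Kdm4b had 0 counts against 20, at least 7.05-fold lower when set against a floor of 3 counts per library. Kdm4c had 0 against 3 counts, both at or under that floor.

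Among the acetyltransferases, Kat7 held most of the reads and was equal between the libraries, whereas the coactivators p300 and CBP were lower in the slimming library. Kat7 (ENSMUSG00000038909, chromosome 11) had 600.5 and 591 CPM, a log2 ratio of -0.01 whose sign turned with scaling by total count. Ep300 (ENSMUSG00000055024, chromosome 15), which acetylates H3K27 at enhancers, had 356 against 521 counts, 1.55-fold lower (log2 -0.63, interval -0.83 to -0.43). Its close relative Crebbp had 734 against 901 counts, 1.30-fold lower (log2 -0.38, interval -0.52 to -0.23). Over the 6 expressed acetyltransferases, 2 lay above and 4 below the overall median, with a median log2 ratio of -0.19.

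The other acetyltransferases were rarer than Kat7. Kat6a (MOZ) was higher in the slimming library with 589 against 426 counts (log2 0.39, interval 0.20 to 0.57), and Kat2a (GCN5) had 795 and 694 (log2 0.12). Kat5 (TIP60) had 168 and 205 counts (log2 -0.37, interval -0.67 to -0.07) and shares 12.1% of its exon bases with Rnaseh2c, which had 436 and 346 counts. Kat8 (MOF), which acetylates H4K16, was under the limit for expressed genes, with 140 against 72 counts (1.83-fold higher, log2 0.87, interval 0.46 to 1.31). Kat2b (PCAF), the relative of Kat2a, had no count in either library, which allows up to 0.143 CPM after slimming and 0.148 CPM in control oocytes, for counting error only.

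The deacetylases were a group of low levels, with Hdac3 and Hdac2 in front, and the 5 expressed genes split between higher and lower. Hdac3, a class I enzyme, had 654 and 700 counts (log2 -0.18, interval -0.33 to -0.02), and Hdac2, another class I enzyme that mouse oocytes are known to need, had 481 and 442 (log2 0.04). Hdac4, a class IIa enzyme, was 1.74-fold lower in the slimming library at 157 against 259 counts (log2 -0.80, interval -1.10 to -0.51), and Hdac8 was 1.45-fold lower at 218 against 300. Both of these lower genes lay near the limit of 10 CPM. Hdac6, a mainly cytoplasmic enzyme that deacetylates tubulin, went the other way at 352 against 228 counts (1.46-fold higher, log2 0.54, interval 0.30 to 0.79). Hdac1 was nearly absent with 9 and 8 counts, and Hdac5 had 1 against 14 (log2 -3.35, interval -9.29 to -1.17). Hdac4 shares 22.4% of its exon bases with Gm26720, and the reads of the pair cannot be separated here.

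Of the arginine methyltransferases, Carm1 differed and Prmt5 did not to the same extent. Carm1 (ENSMUSG00000032185, chromosome 9), which methylates H3R17 and H3R26, had 1487 counts after slimming and 761 in control oocytes, 1.85-fold higher (log2 0.89, interval 0.76 to 1.01). Yet 21.1% of its exon bases overlap Yipf2, a gene of a Golgi membrane protein, and Yipf2 had almost the same counts, 1492 and 810 (log2 0.80). Whether reads of this region were told apart by strand is not stated, so the difference cannot be assigned to Carm1 rather than Yipf2. Prmt5, the symmetric arginine methyltransferase, had 85.2 and 78.0 CPM (log2 0.10, interval -0.00 to 0.20).

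Set beside genes of like level, differences of 2-fold were about as rare among the members. At 10 to under 30 CPM in the higher library, 8.56% of 2231 genes were at least 2-fold apart, and 1 of the 11 members there (Kmt2d). At 30 to under 100 CPM it was 2.86% of genes and 0 of 14 members, at 100 to under 300 CPM 1.81% and 0 of 7, and at 300 to under 1000 CPM 0.416% and 0 of 4. Under 10 CPM, 5 members were at least 2-fold lower by the fitted ratio: Kmt2a, Setdb2, Kdm4b, Kdm4c and Hdac5. Ring1 was higher by a single count. Of genes with counts under 1 CPM in the higher library, where 4 of these 5 lie, 39.8% were lower by 2-fold or more and 30.7% higher by as much. The markers Tyrobp, Fcer1g and Inha also stood at 0 counts in the slimming library, while the immune marker Laptm5 had 86 counts against 75. The 12 immune markers summed to 25.8 CPM against 42.9 in the control library, of which H2-Aa held 17.9 and 27.2. Any part of other cells in the low counts of members was not tested.

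**Figure D3:**
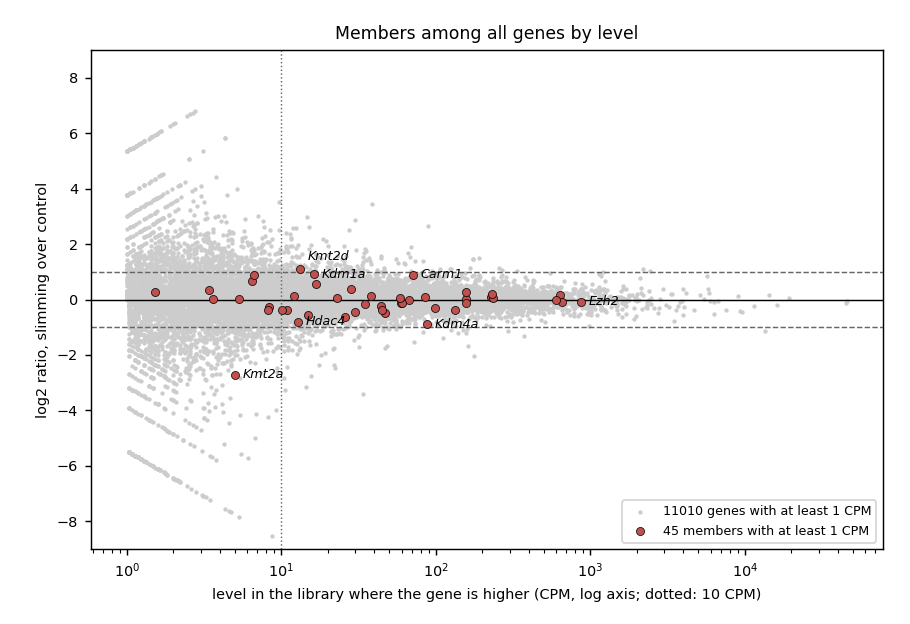
Log2 ratio of slimming over control against the level in the library where the gene is higher (CPM, log axis) for the 11010 genes with at least 1 CPM (grey) and the 45 members among them (red), with 2-fold as dashed lines and 10 CPM as a dotted line. Most members lie between the dashed lines, Kmt2d lies just above and Kmt2a well below them at 5.04 CPM.

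Within families, levels of related genes often lay far apart. In each of the 20 pairs of related members compared, the gene with the higher value per kilobase was the same in both libraries, though for Kdm3a and Kdm3b the counting interval held 1 after slimming. The lead was at least 2-fold in both libraries in 17 pairs (85%) and at least 10-fold in 14 (70%). Over the other 1358 pairs that can be formed from the members, 94.8% kept their order, with a lead of at least 2-fold in both in 80.3% and of at least 10-fold in 47.1%, and pairs share genes, so this is a description only. The gene in front did not change when the longest transcript or no length at all was used. In some pairs the lesser gene was close to absent. Rnf2 stood at 35.8 CPM per kilobase after slimming and 37.9 in control oocytes, at least 829-fold above Ring1 in the control library. Hdac2 stood 41.2-fold (interval 21.5 to 90.5) above Hdac1 after slimming and 42.5-fold (21.4 to 99.2) in control oocytes. The same held for Kat2b and, in the slimming library, for Kdm4b. Kat2a stood at least 371-fold and 324-fold above Kat2b, against a floor of 3 counts. Kdm4a stood at least 284-fold above Kdm4b after slimming and 74.8-fold in control oocytes.

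Among the methyltransferases and LSD enzymes the leaders were likewise the same in both libraries. Kmt2b stood 191-fold above Kmt2a per kilobase in the control library (interval 157 to 234) and 1453-fold in the slimming library (894 to 2543), where Kmt2a had 16 counts. Suv39h2 led Suv39h1 by 52.3-fold and 64.9-fold, Setd1a led Setd1b by 47.1-fold and 34.1-fold, and Ehmt1 led Ehmt2 by 10.3-fold and 10.8-fold. Kdm1b stood 13.4-fold above Kdm1a in the slimming library (12.0 to 15.0) and 22.2-fold in the control library (19.0 to 26.0). Kmt2c stood 11.7-fold above Kmt2d after slimming (10.3 to 13.2) and 24.4-fold in control oocytes (20.4 to 29.5). In both of these pairs the gap was narrower in the slimming library, where Kdm1a and Kmt2d were higher.

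Other pairs were closer to balance. Ezh2 led Ezh1 by 3.99-fold and 4.41-fold, Kdm6b led Kdm6a by 1.69-fold and 2.18-fold, and Crebbp led Ep300 by 2.17-fold and 1.82-fold. Kdm3a and Kdm3b could not be ordered in the slimming library, where their ratio was 1.04 with a counting interval of 0.777 to 1.39. Within the rest, Kdm2a led Kdm2b, Setdb1 led Setdb2, Hdac4 led Hdac5, Kdm5c led Kdm5b, Kdm5b led Kdm5a, and Kdm4a led Kdm4c, in each library.

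**Figure D4:**
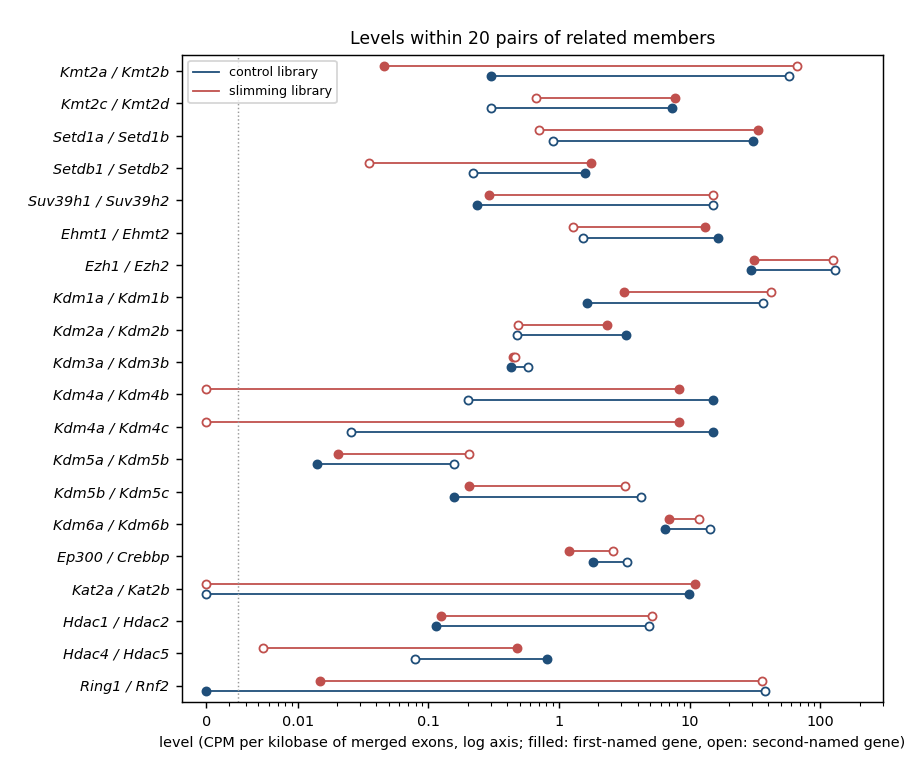
Levels within 20 pairs of related members in CPM per kilobase of merged exons (log axis), with the first-named gene as a filled and the second-named as an open point, 1 line per library and counts of 0 at the left edge. The same gene of each pair lies further right in both libraries, and the long lines show pairs such as Rnf2 and Ring1 in which 1 gene carries nearly all of the reads.

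Summed by mark, with each gene counted under 1 mark, mRNA for the listed writers exceeded mRNA for the listed erasers in both libraries. The balance differed most for H3K9. The H3K27 writers counted the PRC2 subunits Eed (40.8 and 33.0 CPM per kilobase) and Suz12 (11.2 and 12.0) along with Ezh1 and Ezh2. For H3K36 the order depended on where the KDM4 genes, which act on both marks, were counted. The H3K36 writers counted were Setd2 and Nsd1 alone. Nsd2 (9.82 and 8.88 CPM per kilobase) and Nsd3 (1.28 and 0.862) were not members, so the H3K36 order holds for the listed genes only. The 6 H3K9 writers summed to 31.5 CPM per kilobase after slimming and 35.1 in control oocytes, and the 5 erasers to 9.22 and 16.3. The ratio of writers to erasers was thus 3.42 after slimming and 2.15 in control oocytes, a log2 difference of 0.67 with a counting error of 0.12 on either side. Kdm4a made up most of the eraser sum, so the difference rests mainly on its lower counts. For H3K27 the ratio was 11.1 against 9.86 (log2 difference 0.17, counting error 0.08). For H3K36 without the KDM4 genes it was 2.63 against 2.20 (0.26, counting error 0.16). For acetylation it was 7.08 against 6.60, a log2 difference of 0.10 that was about as large as its counting error of 0.10. Kat7 alone held 108 and 107 of the acetyltransferase sums of 131 and 128 CPM per kilobase, and the deacetylases summed to 18.5 and 19.4. The excess of acetylation writers thus rested mainly on Kat7. With the KDM4 genes added, the H3K36 erasers summed to 11.2 and 19.1 CPM per kilobase, above the writers at 7.46 and 8.18, and the ratio was 0.669 against 0.43 (log2 difference 0.64). That difference is close to the one for H3K9 and holds the same Kdm4a counts. For H3K4 the ratio was 2.24 against 2.30, a log2 difference of -0.04 within the counting error of 0.06. The size of a ratio depended on the length used. With the longest transcript it was 19.98 against 18.21 for H3K27, and with no length division 3.80 against 3.89 for H3K4. For H3K36 with the KDM4 genes added, the order turned in the slimming library with no length division. Writers then summed to 95.1 CPM and erasers to 87.3 after slimming, against 105 and 141 CPM in control oocytes. All values here are sums of mRNA, and enzyme activity was not measured.

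**Figure D5:**
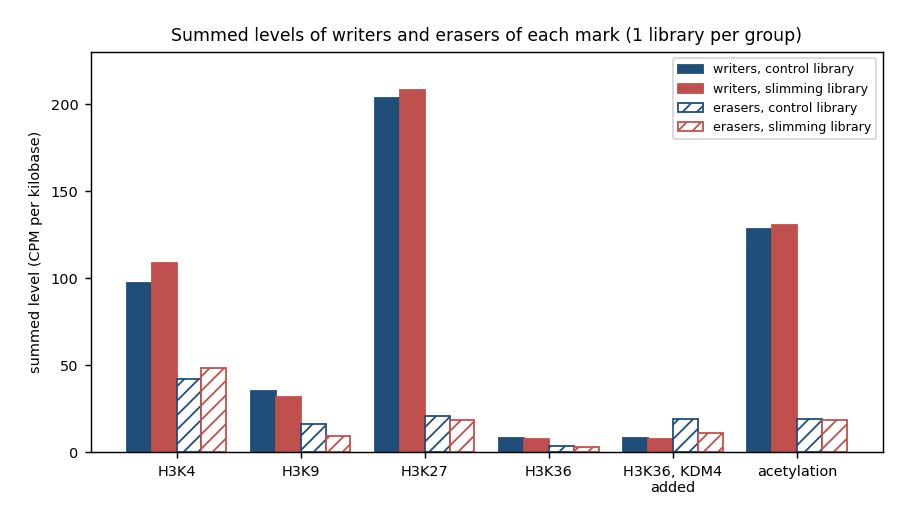
Summed level of writers (filled) and erasers (hatched) of each mark in CPM per kilobase of merged exons, in the control (blue) and slimming (red) library, with 1 library per group and no error bars. The listed writers stand above the listed erasers except for H3K36 with the KDM4 genes added, and the H3K9 erasers step from 16.3 in the control to 9.22 in the slimming library.

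The subunits that work with these enzymes, and further enzymes of the same families, were taken from 10 lists of 143 genes in all, of which 82 were expressed. Of the expressed genes only Epc2, a subunit of the TIP60 acetyltransferase complex, was at least 2-fold apart, with 140 counts after slimming and 445 in control oocytes (3.35-fold lower, log2 -1.75, interval -2.03 to -1.47). Of the 82, this is 1 lower and 0 higher by 2-fold or more, against the 1.94% and 2.73% of all expressed genes. The median log2 ratio over the 82 was -0.03, with 37 above and 45 below the overall median.

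Partners of the methyltransferases were near equal for the most part. Among partners of the H3K4 enzymes, 4 of 6 expressed genes lay above the overall median and 2 below. Dpy30 was the most abundant, with 946 and 1261 CPM (log2 -0.44), and Men1 (menin, which binds Kmt2a and Kmt2b) was higher in the slimming library at 646 against 337 counts (log2 0.86, interval 0.67 to 1.05). All 6 expressed PRC2 partners lay below the overall median, with a list median of -0.15. Of these, Aebp2 and the histone chaperone Rbbp4 had log2 ratios of -0.40 and -0.35, and Phf1, the most abundant at 725 and 762 CPM, had -0.10 and shares 43.8% of its exon bases with Cuta and another gene. Among PRC1 partners, 4 of 8 lay above and 4 below that median. Cbx2, which reads H3K27 methylation, was the most abundant at 1197 and 1162 CPM (log2 0.01), and Bmi1 and Pcgf3 had -0.45 and -0.49.

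Partners of the acetylation enzymes also went both ways. In deacetylase complexes 9 of 14 expressed genes lay above the overall median and 5 below. Sin3b, a scaffold for Hdac1 and Hdac2, was 1.61-fold higher in the slimming library at 434 against 264 CPM (log2 0.68, interval 0.64 to 0.73), and the NuRD subunit Gatad2a was the most abundant at 1218 and 1262 CPM (log2 -0.08). In acetyltransferase complexes 8 of 19 lay above and 11 below. Apart from Epc2, Sgf29 (an H3K4 methylation reader of the SAGA complex) had a log2 ratio of 0.68, and Ep400, the most abundant at 405 and 472 CPM, had -0.25.

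Further enzymes and readers that were expressed stayed short of 2-fold. Among other lysine methyltransferases 5 of 6 lay above the overall median, with Nsd3 at 0.54, Setd4 at 0.51 and the most abundant, Nsd2, at 0.11. Among other demethylases Phf2, which acts on H3K9, had -0.62, Jmjd6 0.34 and Kdm7a -0.15. Among other acetylation enzymes Taf1 had -0.58, Ncoa2 -0.37 and Hat1, which acetylates newly made H4, 0.10. Prmt2 and Prmt3 had -0.29 and -0.26. Of the 11 expressed readers and heterochromatin genes, 8 lay below the overall median and the list median was -0.28. Trim28, the corepressor that brings Setdb1 to retroelements, was the most abundant at 1937 and 2308 CPM (log2 -0.28), while Zmynd11, a reader of H3K36 methylation, had -0.92 and Cbx1, a heterochromatin protein that binds H3K9 methylation, -0.72.

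Longer genes had somewhat lower ratios in these libraries in general, and many of the enzymes are long. The median log2 ratio of the expressed genes was 0.15 in the shortest of 5 equal groups by exon length and -0.08 in the longest, and 14 of the 36 expressed members fell into the longest group, 8 into the next and 0 into the shortest. In the longest group the members had a median of -0.18. With the trend by length removed, the shift of the members against the expressed genes was -0.03 in place of -0.08, and Kmt2d stayed the only member at least 2-fold apart.

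In the authors' deposited table, which compares the reads of the 2 libraries without replicates, 26 of 50 members with a p-value were marked at a p-value of 0.001, of which 11 were above and 15 below control. Over all 15263 genes with a p-value, 35.9% were marked, 19.4% above and 16.5% below. Among expressed genes alone, 20 of the 36 members were marked in the authors' deposited table, against 57.1%. The marked members include Ezh2 and Dot1l, whose differences were under 1.1-fold.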

How the data were processed

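mRNA was measured in 2 pooled libraries, 1 per group. Per the labels' protocols, reverse transcription started from primers with 24 bases of oligo(dT) and cDNA went through 18 and then 14 PCR cycles, with no molecular identifiers named, so intervals cover counting error only. The submitters' processing notes name build mm9. Which aligner and counter were used, and whether strand was, is not given in the sources used here. Raw counts per Ensembl gene were deposited by the authors, blank for 18210 genes, which was read as 0. They also deposited log2 ratios, a z-score (score), p-values and q-values per the file headers.

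Symbols, exon lengths and overlaps came from GENCODE vM21 (GRCm38), a later build. Of 18017 genes with counts, 16913 had a symbol. Ratios used 0.5 added to each count and TMM scaling by edgeR 4.0.16 (R 4.3.3), with factors 1.01 for slimming and 0.989 for control. Intervals are exact 95% Clopper-Pearson intervals of the slimming share of a gene's counts. Genes at 10 CPM or more in at least 1 library were called expressed, and 2-fold was the limit for a difference. Calls and intervals were tried on simulated counts with planted changes and counting error alone. That simulation held no PCR or sample variation, so it does not show how they perform on real libraries. Tables used Python 3.11.15, numpy 2.4.6, scipy 1.17.1, pandas 2.3.3 and statsmodels 0.14.6, and plots matplotlib 3.10.9.

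All members were named. From each list of partner genes the most abundant, the 2 with the largest absolute log2 ratio and any at least 2-fold apart were named, except 1 gene that is not reported here. Members and lists were chosen with earlier results of these data known. Alternatives were other scalings (total count, and size factors of DESeq2 1.42.0), 1 added to each count, limits of 1 or 30 CPM or none, removal of the length trend, other lengths, and, chosen after seeing the data, a fold of 1.5, KDM4 genes counted for H3K36 too, and leaving out members that share at least 5% of their exon bases.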

Additional observations from a re-analysis of the deposited data

How the results depend on the processing

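No paired analysis was possible because each group is 1 library. Kmt2d alone was higher by 2-fold or more, and 0 members were lower by as much, under scaling by total count, DESeq2 size factors, 1 added to each count, removal of the length trend and leaving out the members that share exons. The level limit moved these counts by changing which genes enter. With at least 1 CPM, 1 member was higher and 1 lower (Kmt2a) and 11 partner genes were 2-fold apart. With at least 30 CPM, 0 members were higher, 0 lower and 0 partner genes apart. With no limit, 2 members were higher and 5 lower, and 25 partner genes were apart. At a fold of 1.5, 3 members were higher and 3 lower. The shift of the members' median stayed between -0.11 and 0.03 and was above 0 with no limit on level alone. Among the 36 expressed members, only Kat7 changed sign, under scaling by total count and DESeq2 size factors. The leading gene of each of the 20 pairs and the direction of each writer to eraser difference stayed the same with other lengths. With the KDM4 genes counted among the H3K36 erasers as well, the H3K36 difference was 0.64 in place of 0.26. Depth limits the genes under 10 CPM, and leaving out a library was not possible.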
